A study of Mus musculus with 4 samples.

Results

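The *HoxC* cluster of the mouse holds 9 genes, *Hoxc4*, *Hoxc5*, *Hoxc6*, *Hoxc8*, *Hoxc9*, *Hoxc10*, *Hoxc11*, *Hoxc12* and *Hoxc13*. They were taken by symbol from the 23420 gene symbols of each count file, and all 9 were present. The RNA-seq compared 2 libraries of wild type (WT) cervical motor neurons (MNs) with 2 libraries of *Patz1* -/- (*Patz1* KO) cervical MNs. All 4 came from E14, a line of mouse embryonic stem cells (ESCs), which the study differentiated through embryoid bodies with retinoic acid and a smoothened agonist. PATZ1 is a zinc finger protein that the study examined as an insulation factor at borders within the *Hox* clusters. The KO allele was made with CRISPR/Cas9. Several clonal *Patz1* KO lines were made, and the labels do not give the line behind each library, so genotype and clone cannot be told apart. The sample titles name ESCs, while their source and cell type name MNs, and the libraries were treated as MNs. The study describes its replicates as separate differentiations. The question addressed here was how the output of the *HoxC* cluster, read in order along the chromosome, differed between the genotypes.

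*Hox* genes encode homeodomain transcription factors that give cells their position along the head-to-tail axis. Within a cluster the genes at the 3′ end are used in anterior tissue and the genes at the 5′ end in posterior tissue, and a border between active and Polycomb-repressed chromatin separates the used genes from the silent ones. In spinal MNs, *Hoxc4* and *Hoxc5* are cervical genes, *Hoxc6* is used in MNs of the forelimb level, *Hoxc8* in caudal brachial MNs, *Hoxc9* in thoracic MNs and *Hoxc10* and *Hoxc11* in lumbar MNs. HOXC6 and HOXC9 are known to repress each other's MN programmes, and HOXC9 also represses forelimb-level *Hox* genes.

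In GENCODE M21 (GRCm38, the same assembly as mm10) the cluster covers 115.8 kb of the plus strand of chromosome 15. It starts with *Hoxc13* at 102921103 and ends with *Hoxc4* at 103036852. *Hoxc6* is annotated from 102998257 to 103011881, *Hoxc8* from 102990607 to 102994111 and *Hoxc9* from 102976439 to 102985099. *Hoxc5* is annotated from 102967443 because 1 of its 2 transcripts has a far upstream exon that shares 166 bases with *Hoxc10*, while RefSeq places the gene from 103014008 to 103017429. No other member shared annotated exon bases with another gene on either strand. Of the stretches of 50 bases in a member's transcripts, 3.92% in *Hoxc5* and 6.4% in *Hoxc10* were shared, each with the other gene. The shared part was 0.432% in *Hoxc8* and 1.27% in *Hoxc9*, and it was 0% in the other 5 members. The shared stretches of *Hoxc8* were found in 259 other genes, none of them a *Hox* gene, and those of *Hoxc9* in 253. The only other *Hox* gene among those 253 was the paralogue *Hoxb9*, which had 1343 to 2651 counts per library. It shared 1 of the 30 shared stretches of *Hoxc9*.

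RT-qPCR primers of 4 members are shown because they mark the exon junctions at which these transcripts can be told from genomic DNA. Each pair lies in coding sequence of 2 neighbouring exons and matched 1 annotated transcript of its gene and no other member. They were copied from the oligo table that accompanies the data and are written 5′ to 3′, and no RT-qPCR value was used.
Hoxc5 forward: cacagatttacccgtggatgac
Hoxc5 reverse: ctttctcgagttccagggtct
Hoxc6 forward: tagttctgagcagggcagga
Hoxc6 reverse: cgagttaggtagcggttgaagt
Hoxc8 forward: gtaaatcctccgccaacactaa
Hoxc8 reverse: cgctttctggtcaaataaggat
Hoxc9 forward: gcaagcacaaagaggagaagg
Hoxc9 reverse: cgtctggtacttggtgtaggg

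On GRCm38 the *Hoxc5* primers lie at chr15:103014494-103014515 in exon 1 and chr15:103015270-103015290 in exon 2, around an intron of 692 bases, and give a product of 105 bases. The *Hoxc6* primers lie at chr15:103009917-103009936 in exon 1 and chr15:103010815-103010836 in exon 2 of 1 of its 3 annotated transcripts, with a product of 192 bases. The *Hoxc8* primers lie at chr15:102991120-102991141 in exon 1 and chr15:102992638-102992659 in exon 2, with a product of 193 bases. The *Hoxc9* primers lie at chr15:102982155-102982175 in exon 2 and chr15:102983948-102983968 in exon 3, with a product of 110 bases. The RNA-seq counts below were summed over a whole gene, so they do not separate its transcripts.

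The cluster also holds 2 microRNA genes, and their mature sequences are shown because they sit among the members whose levels follow. *Mir196a-2* lies between *Hoxc10* and *Hoxc9*, with its mature arms at chr15:102973365-102973386 and chr15:102973401-102973422, and miR-196 is known to target *Hox* transcripts such as *Hoxb8*. *Mir615* lies in the intron of *Hoxc5* that the primers span, with its arms at chr15:103014926-103014947 and chr15:103014969-103014990. Bases 2 to 8, the seed, are in capitals, and the 4 seeds differ from each other. The sequences are from RefSeq on GRCm38.p6.
mmu-miR-196a-5p: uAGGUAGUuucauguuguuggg
mmu-miR-196a-2-3p: uCGGCAACaagaaacugccuga
mmu-miR-615-5p: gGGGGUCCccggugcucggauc
mmu-miR-615-3p: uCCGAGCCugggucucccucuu

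The deposited values are reads counted per gene symbol. The total count was 14769104 and 15728158 for the WT libraries, 23881522 and 17402342 for the KO libraries, and the *HoxC* genes together took 2930, 3320, 4182 and 3249 counts. Levels are given in CPM, a gene's count scaled to the size of its library with edgeR's TMM method, and each fold change is *Patz1* KO over WT from edgeR's quasi-likelihood test, with p values adjusted over all 14269 genes that passed the filter on low counts. At an adjusted p below 0.05, 47.9% of those genes were called, 23.8% lower and 24.1% higher in *Patz1* KO, and in 74.2% the libraries of the groups did not overlap in CPM. The results of the members and of every list below are read against these shares. *Patz1* itself was read in every library, with 1363 and 1499 counts for WT and 1154 and 714 for *Patz1* KO. Its mean level was 92.9 ± 1.96 CPM against 45.1 ± 3.56 CPM in the KO (SD, n = 2), a log2 fold change of -1.04 (adjusted p = 1.1e-07, edgeR). Reads were counted over the whole gene, so *Patz1* counts in the KO libraries need not come from the edited part, and its annotated exons overlap those of 2 predicted genes.

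Of the 9 members, 5 passed the filter on low counts and 1 of these, *Hoxc6*, was called, against the background of 47.9% of all genes. *Hoxc6* fell, with a fold of 0.504 (95% interval 0.414 to 0.615). *Hoxc4* and *Hoxc5*, on its 3′ side, had intervals that lay within a fold of 0.787 to 1.2. *Hoxc8* and *Hoxc9*, on its 5′ side, had few counts and wide intervals. The 4 genes at the 5′ end, *Hoxc10* to *Hoxc13*, had at most 3 counts in any library.

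**Figure D1:**
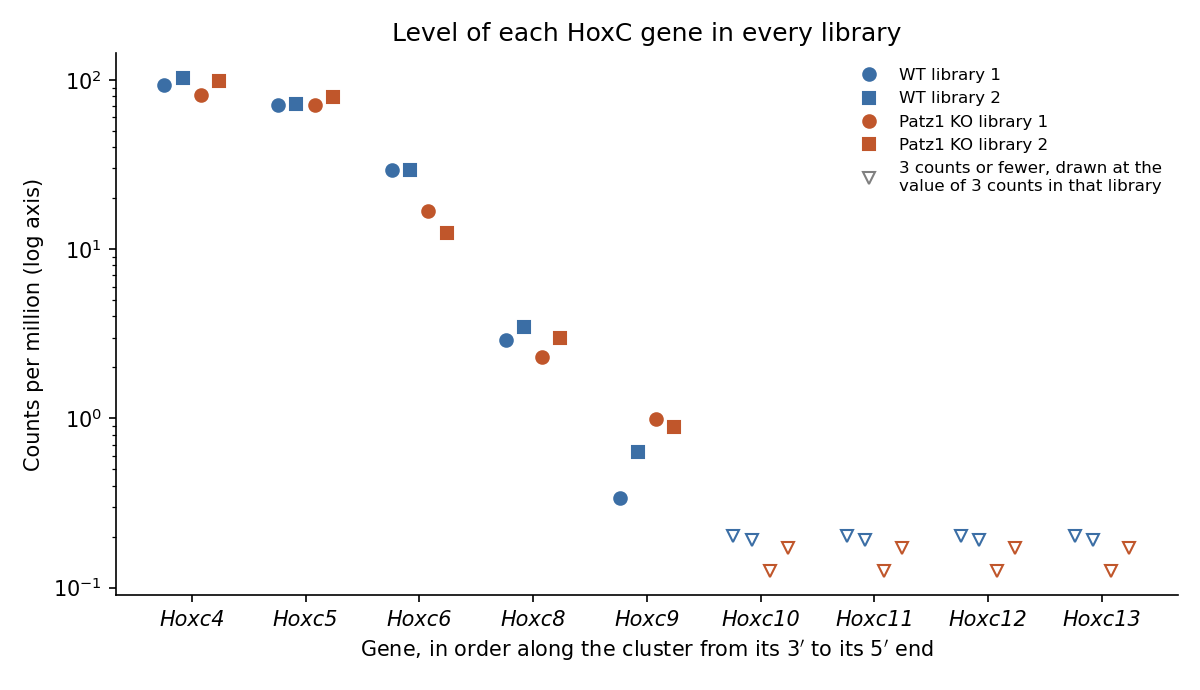
Level of each HoxC gene in CPM (vertical, log axis) in each of the 4 libraries, in order from Hoxc4 at the 3′ end to Hoxc13 at the 5′ end; filled points are WT (blue) and Patz1 KO (orange) libraries, and open triangles stand at the CPM of 3 counts for libraries with 3 counts or fewer. Hoxc6 is the gene above 10 CPM whose Patz1 KO libraries (16.7 and 12.4) lie clear of the WT libraries (29.2 and 29.2), and no library rises above 3 counts from Hoxc10 on.

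*Hoxc4*, the most 3′ gene of the cluster, was counted 1382 and 1644 times in the WT libraries, against 1963 and 1655 times in the KO libraries. Scaled to library size this was 92.8 and 103 CPM in WT and 81.0 and 98.7 CPM in *Patz1* KO. A library of each genotype lay near 100 CPM and the groups overlapped. The log2 fold change was -0.13 (standard error 0.102, 95% interval -0.345 to 0.0851, adjusted p = 0.311). Single libraries decided this value. Without *Patz1* KO library 2 the log2 fold change was -0.27 and passed the test (adjusted p = 0.00548), and without *Patz1* KO library 1 it was 0.012.

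*Hoxc5* was counted 1064 and 1146 times in the WT libraries, against 1730 and 1321 times in the KO libraries. Its level was 71.4 and 72.1 CPM against 71.4 and 78.8 CPM. A *Patz1* KO library thus sat at the level of the lower WT library and the groups overlapped. The log2 fold change was 0.06 (standard error 0.0925, 95% interval -0.131 to 0.258, adjusted p = 0.597), and it was -0.0016 without *Patz1* KO library 2. *Hoxc4* and *Hoxc5* are the members that mark cervical identity, and neither passed the test in either direction.

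*Hoxc6* was counted 435 and 464 times in the WT libraries, against 406 and 208 times in the KO libraries. In CPM the WT libraries were alike at 29.2 and 29.2, and the *Patz1* KO libraries had 16.7 and 12.4. Both KO libraries lay below both WT libraries, and they differed from each other 1.35-fold. The log2 fold change was -0.99 (standard error 0.136, 95% interval -1.27 to -0.701, adjusted p = 1.21e-05). With any single library dropped, the log2 fold change stayed between -1.23 and -0.795 and the call held. Against a minimum absolute log2 fold change of 1 in place of no change, *Hoxc6* was not called (adjusted p = 1). In bulk RNA, fewer cells that use *Hoxc6* and less *Hoxc6* RNA per cell cannot be told apart. Along with *Hoxc6*, the summed level of 6 neural crest and mesenchyme markers was lower in the KO (129.3 and 146.4 CPM against 15.55 and 19.62 CPM). *Col3a1* (94.8 to 10.1 CPM) held most of that sum, and *Foxd3* of the same list rose from 0.619 to 3.57 CPM. The summed level of 8 MN markers was higher (643.7 and 599.6 CPM against 1032 and 939.6 CPM). These 2 lists were not alone. The primitive and visceral endoderm sum was lower too (70.29 and 78.05 CPM against 12.46 and 13.3 CPM). The glial sum was higher (11.55 and 11.89 CPM against 50.91 and 29.69 CPM), and the other marker lists are given below. The part of any list in the fall of *Hoxc6* was not tested.

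*Hoxc8*, a gene of caudal brachial MNs, was counted 43 and 55 times in the WT libraries, against 56 and 50 times in the KO libraries. Its level was 2.89 and 3.46 CPM against 2.31 and 2.98 CPM. The groups overlapped. Its log2 fold change of -0.28 had a standard error of 0.274 and a 95% interval of -0.858 to 0.293 (adjusted p = 0.417). In fold terms the interval went from 0.552 to 1.23, so the data were compatible with a fall, no change or a rise within those bounds.

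*Hoxc9*, the thoracic gene on the far side of *Hoxc8*, was counted 5 and 10 times in the WT libraries, against 24 and 15 times in the KO libraries. This was 0.336 and 0.629 CPM against 0.99 and 0.894 CPM. Both KO libraries lay above both WT libraries, and 74.2% of all tested genes had such a separation in either direction. The log2 fold change was 0.95 (standard error 0.487), a fold of 1.94 with a 95% interval of 0.952 to 3.94, and it did not pass the test (adjusted p = 0.116). It was 0.586 without WT library 1 and 1.48 without WT library 2, and leaving out any library gave no call.

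*Hoxc10*, *Hoxc11* and *Hoxc12* had 0 counts in all 4 libraries. Taking 3 counts as the limit, a count of 0 allows a level of up to 0.203 and 0.191 CPM in the WT libraries. In the *Patz1* KO libraries it allows up to 0.126 and 0.172 CPM. In CPM the limit is 3 counts over the total count of the library, without the TMM scaling of the levels. It covers counting error only. *Hoxc13* was counted 1 and 1 times in the WT libraries, against 3 and 0 times in the KO libraries, all at or under that limit, so no fold is given. A difference between the genotypes was not detectable at this depth for any of these 4 genes.

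Levels of different genes were compared per kilobase of annotated exon. In WT the order followed the order along the cluster, with 38.2 ± 2.92 CPM per kilobase for *Hoxc4*, 23.2 ± 0.147 for *Hoxc5*, 12.1 ± 0.00634 for *Hoxc6*, 1.12 ± 0.143 for *Hoxc8* and 0.198 ± 0.0853 for *Hoxc9* (SD, n = 2). In *Patz1* KO the order was the same, with 35.0 ± 4.87, 24.3 ± 1.69, 6.05 ± 1.28, 0.934 ± 0.168 and 0.388 ± 0.0279 CPM per kilobase. No 2 neighbours among these 5 genes overlapped between libraries of the same genotype, and the order stayed the same when the length of the longest transcript was used. Among these 5 genes the WT level per kilobase dropped most, as a ratio of neighbours, between *Hoxc6* and *Hoxc8*. The step from *Hoxc9* to *Hoxc10* has no such ratio, since the levels of *Hoxc10* to *Hoxc13* lay at or under the detection limit in every library.

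The make-up of the cluster's counts was given within each library. A share depends on the counts of the other members too, and its interval covers counting error only. *Hoxc4* took 47.2% and 49.5% of the *HoxC* counts in WT, against 46.9% and 50.9% in *Patz1* KO. *Hoxc5* took 36.3% (Wilson 95% interval 34.6 to 38.1) and 34.5% (32.9 to 36.2) in WT against 41.4% (39.9 to 42.9) and 40.7% (39.0 to 42.4) in *Patz1* KO. *Hoxc6* took 14.8% (13.6 to 16.2) and 14% (12.8 to 15.2) in WT against 9.71% (8.85 to 10.6) and 6.4% (5.61 to 7.3) in *Patz1* KO. The intervals of *Hoxc6* did not meet between genotypes, and they did not meet between the *Patz1* KO libraries either. The level of *Hoxc5* was not called (adjusted p = 0.597, edgeR), so its higher share does not stand for a called rise in level. The share of *Hoxc8* stayed between 1.34% and 1.66% in all libraries, and that of *Hoxc9* was 0.171% and 0.301% in WT against 0.574% and 0.462% in *Patz1* KO. The 9 genes together summed to 202.8 ± 8.55 CPM in WT against 183.1 ± 15.0 CPM in *Patz1* KO, and *Hoxc4*, *Hoxc5* and *Hoxc6* together to 199.0 ± 7.95 and 179.5 ± 14.7 CPM (SD, n = 2).

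Ratios of neighbouring genes within a library compare the genes without any scaling between libraries. The ratio of *Hoxc4* to *Hoxc5* counts was 1.3 and 1.43 for WT against 1.13 and 1.25 for *Patz1* KO. The ratio of *Hoxc5* to *Hoxc6* was 2.45 and 2.47 in WT and 4.26 and 6.35 in *Patz1* KO, a rise of 1.08 on the log2 scale. On the 5′ side of *Hoxc6* the ratio of *Hoxc6* to *Hoxc8* was 10.1 and 8.44 in WT and 7.25 and 4.16 in *Patz1* KO, a difference of -0.75. The ratio of *Hoxc8* to *Hoxc9* was 8.6 and 5.5 in WT and 2.33 and 3.33 in *Patz1* KO, a difference of -1.3 that rests on the few counts of both genes. The libraries of the genotypes did not overlap in any of the 4 ratios, *Hoxc4* to *Hoxc5* included, and for single genes 74.2% of all tested did not overlap. The difference between the fitted log2 fold changes was -0.193 (combined standard error 0.138) for *Hoxc4* against *Hoxc5*, 1.05 (0.164) for *Hoxc5* against *Hoxc6*, -0.705 (0.306) for *Hoxc6* against *Hoxc8* and -1.24 (0.559) for *Hoxc8* against *Hoxc9*. With 2 libraries against 2, the exact permutation test (2-sided) gave p = 0.333 for each of the 4 pairs, which is the smallest it can give.

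**Figure D2:**
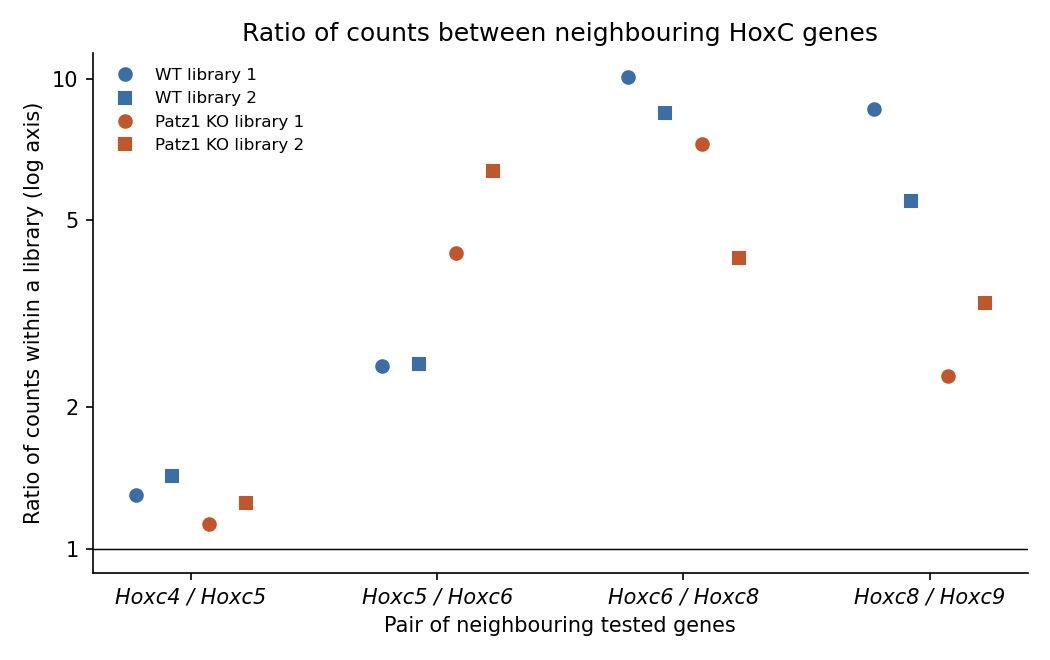
Ratio of counts of each pair of neighbouring tested HoxC genes (horizontal) within a library (vertical, log axis), with WT libraries in blue and Patz1 KO libraries in orange. The Hoxc5 to Hoxc6 ratio is 2.45 and 2.47 in WT against 4.26 and 6.35 in Patz1 KO, and the ratios of Hoxc6 to Hoxc8 and of Hoxc8 to Hoxc9 lie lower in the Patz1 KO libraries.

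The nearest genes outside the cluster with at least 10 counts in every library did not share 1 direction. On the *Hoxc13* side, *Calcoco1* (199 kb away) was higher by 0.32 on the log2 scale (adjusted p = 0.0241), while *Atp5g2* (-0.26, adjusted p = 0.0793) and *Atf7* (-0.11, adjusted p = 0.719) did not pass the test. On the *Hoxc4* side, *D930007P13Rik* (86.2 kb away) did not pass the test (0.05, adjusted p = 0.82), *Smug1*, a uracil-DNA glycosylase 116 kb away, rose by 0.85 (adjusted p = 4.76e-07), and *Cbx5*, which encodes the heterochromatin protein HP1α and lies 155 kb away, fell by 0.52 (adjusted p = 0.0006). Of these 6 genes, 2 were called higher and 1 lower, beside 24.1% higher and 23.8% lower over all genes tested.

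**Figure D3:**
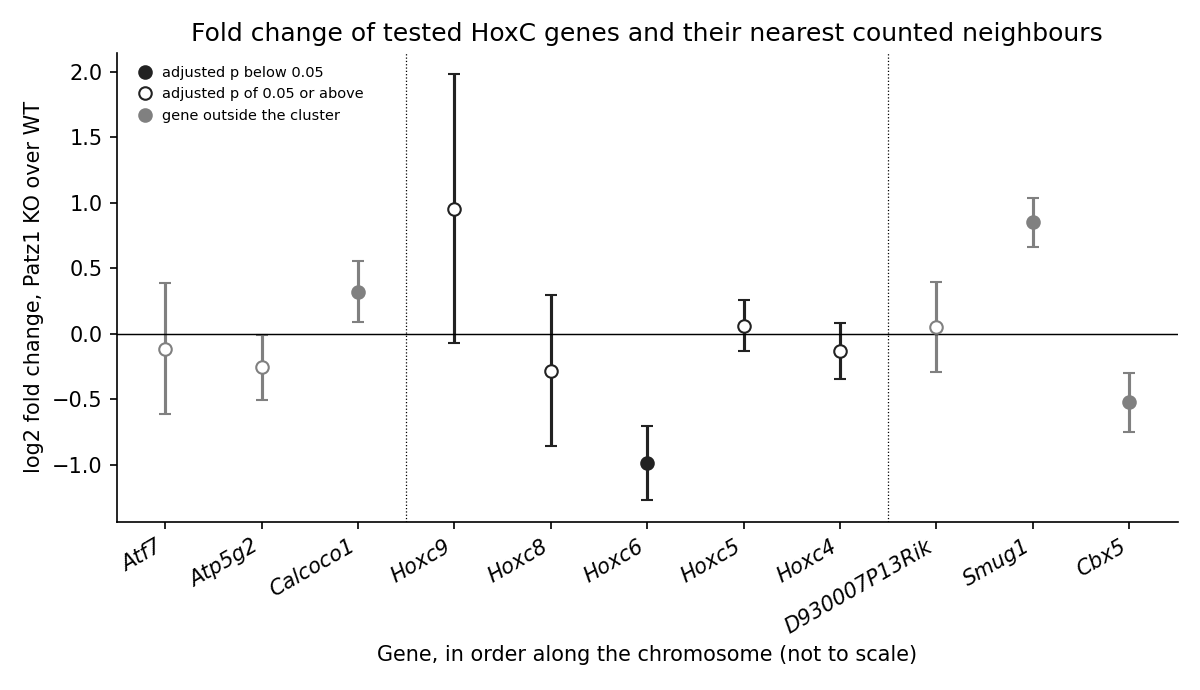
Log2 fold change of Patz1 KO over WT (vertical, with 95% intervals) for the 5 tested HoxC genes (black) and the 3 nearest genes with at least 10 counts in every library on each side (grey), in order along the chromosome; filled points passed the test. Hoxc6 is the member that passed, at -0.99, and the interval of Hoxc9 reaches from -0.0712 to 1.98.

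Non-coding genes of the cluster were near or under the detection limit. *Hotair*, a long non-coding RNA read from the opposite strand between *Hoxc12* and *Hoxc11*, had 4 counts in *Patz1* KO library 1 and 0 in the other libraries. *Mir615* had 3 and 2 counts for WT and 2 and 2 for the KO, and *Mir196a-2* had 0 in all libraries. Ribosome-depleted total RNA libraries of this kind do not measure mature microRNAs, so these counts do not give the level of the 4 mature sequences printed above.

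Mammals have 4 *Hox* clusters, and genes of the same number in different clusters are paralogues that share much of their function. Over the 22 genes of groups 4 to 13 in the *HoxA*, *HoxB* and *HoxD* clusters, 13 were tested. Of these, 4 were higher and 5 lower, beside 24.1% higher and 23.8% lower over all genes tested. Their median log2 fold change was -0.0806 beside -0.00141 over all genes. The tested paralogues of group 6 went different ways: *Hoxa6* was higher by 1.26 (adjusted p = 2.37e-05), *Hoxb6* lower by a log2 fold change of -0.24 (adjusted p = 0.0381) and *Hoxc6* lower by a log2 fold change of -0.99. The ratio of *Hoxc6* to *Hoxa6* counts was 5.0 and 5.95 in WT against 1.17 and 1.1 in *Patz1* KO, so their counts were nearly equal in *Patz1* KO. The ratio of *Hoxc6* to *Hoxb6* was 0.334 and 0.347 in WT and 0.224 and 0.175 in *Patz1* KO. The fitted log2 fold changes differed by -2.25 (combined standard error 0.23) and by -0.752 (0.163).

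In groups 4 and 5 the *HoxB* genes and *Hoxd4* fell, and the *HoxA* and *HoxC* genes were not called. *Hoxb4* fell from 84.4 ± 2.12 to 45.1 ± 1.44 CPM (log2 fold change -0.91, adjusted p = 3.92e-07) and *Hoxb5* from 66.3 ± 2.04 to 44.0 ± 0.978 CPM (-0.59, adjusted p = 5.37e-05). The ratio of *Hoxc4* to *Hoxb4* was 1.12 and 1.2 in WT against 1.84 and 2.14 in *Patz1* KO, and that of *Hoxc5* to *Hoxb5* was 1.1 and 1.06 against 1.65 and 1.76. *Hoxd4* had a log2 fold change of -0.55 (adjusted p = 0.00014), while *Hoxa4* (0.06, adjusted p = 0.671) and *Hoxa5* (-0.08, adjusted p = 0.472) did not pass the test. The 3 tested *Hox* genes with fold changes closest to that of *Hoxc6* were *Hoxb4*, *Hoxb5* and *Hoxd4*, at distances of 0.081, 0.394 and 0.442 on the log2 scale.

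The *HoxC* cluster has no gene of group 7, where *Hoxa7* rose from 4.7 ± 0.564 to 14.4 ± 0.508 CPM (log2 fold change 1.61, adjusted p = 7.14e-07) and *Hoxb7* had a log2 fold change of -0.50 (adjusted p = 0.0006). In groups 8 and 9 the *HoxD* genes moved and the *HoxC* genes were not called. *Hoxd8* rose from 4.02 ± 0.0898 to 11.9 ± 0.76 CPM (log2 fold change 1.56, adjusted p = 2.17e-06), and the ratio of *Hoxc8* to *Hoxd8* counts went from 0.729 and 0.846 in WT to 0.203 and 0.239 in *Patz1* KO. *Hoxb8* (-0.225, adjusted p = 0.0611) was not called, and its ratio with *Hoxc8* overlapped between genotypes. *Hoxd9* rose by 2.47 (95% interval 1.64 to 3.29, adjusted p = 5.52e-05) from 8 and 7 counts to 61 and 50 counts. Its WT counts were under the filter's minimum count of 10, so *Hoxd9* was tested only because of its *Patz1* KO libraries. *Hoxb9* (0.17, adjusted p = 0.126) was not called. The fitted fold changes of *Hoxc9* and *Hoxd9* differed by -1.51 on the log2 scale (combined standard error 0.625). The exact permutation test was run on 15 pairs of neighbours and paralogues in all, and after Benjamini-Hochberg adjustment the smallest exact p the design gave was 0.385, so no ratio could pass on its own.

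**Figure D4:**
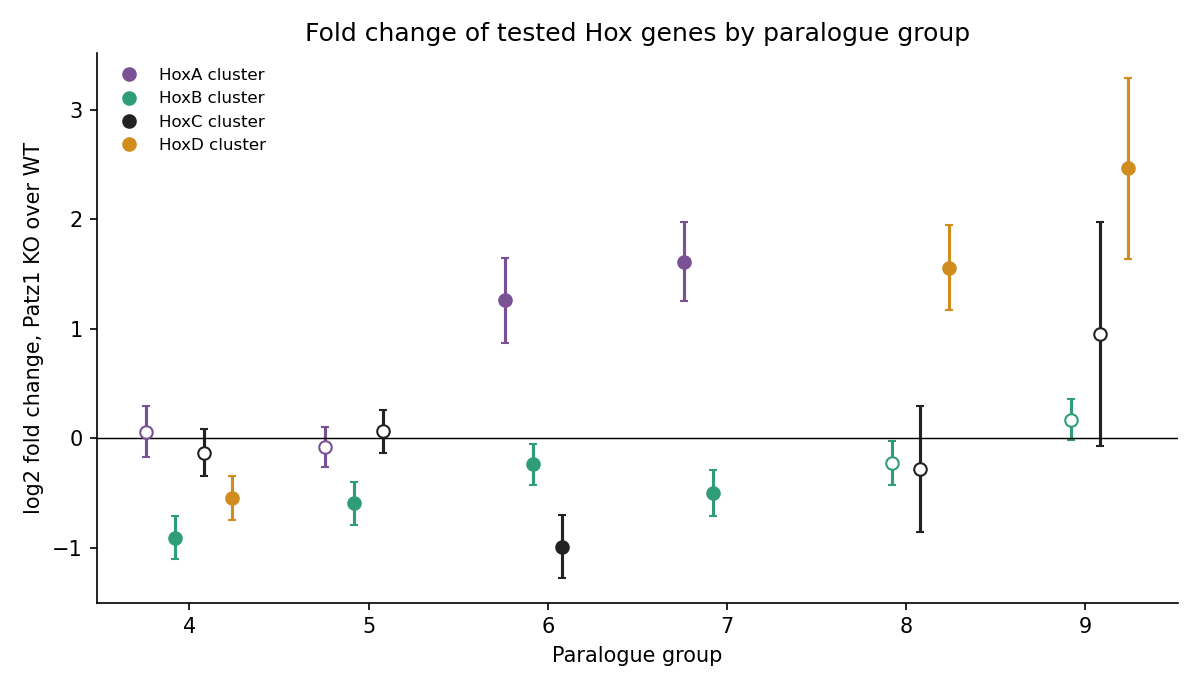
Log2 fold change of Patz1 KO over WT (vertical, with 95% intervals) for every tested Hox gene of groups 4 to 13, by paralogue group (horizontal) and cluster (colour); filled points passed the test. In group 6 Hoxa6 (1.26) and Hoxc6 (-0.99) lie on opposite sides of 0, and in group 9 Hoxc9 (0.95) lies between Hoxb9 (0.17) and Hoxd9 (2.47).

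Hox proteins bind DNA with TALE cofactors. Of 9 tested genes for these, 2 rose and 0 fell, beside 24.1% higher and 23.8% lower over all genes tested. *Pbx3* rose from 80.0 ± 1.9 to 117 ± 4.48 CPM (log2 fold change 0.54, adjusted p = 6.4e-05) and *Meis3* from 68.4 ± 3.94 to 103 ± 8.83 CPM (0.59, adjusted p = 6.14e-05). *Pbx4* (0.50, adjusted p = 0.0563) and the abundant *Meis2* (-0.125, adjusted p = 0.263) were not called. The median log2 fold change of the list was -0.0175.

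Retinoid signalling and caudal factors set which *Hox* genes are opened. Of 17 tested genes of that list (23 listed), 2 rose and 11 fell, beside 24.1% higher and 23.8% lower over all genes. The median log2 fold change of the list was -0.425. *Cyp26a1*, which encodes a retinoic acid-degrading enzyme, fell by 1.48 on the log2 scale (adjusted p = 2.65e-08). *Aldh1a2*, which encodes a retinoic acid-producing enzyme and is used in limb-level MNs, fell by 1.21 (adjusted p = 3.69e-08). *Lin28b*, an RNA-binding regulator of developmental timing, fell by 1.23 (adjusted p = 2.32e-07). The abundant *Cyp26b1* fell by 0.296 (adjusted p = 0.0141), and *Crabp2*, a retinoic acid-binding protein gene, was lower by a log2 fold change of -0.31 (adjusted p = 0.0318). These genes were named by smallest p or highest level, and the 2 that rose are not among them.

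Of 20 genes known to lie downstream of Hox proteins in MN columns and pools, 5 rose and 8 fell. Over all genes tested, 24.1% were higher and 23.8% lower. The median log2 fold change of the list was -0.0121. *Foxp1*, the Hox cofactor that defines limb-innervating MNs, had 154 and 155 CPM in WT and 75.7 and 74.1 CPM in *Patz1* KO (log2 fold change -1.05, adjusted p = 2.77e-08). *Aldh1a2*, named above, is in this list too. *Nr2f2* fell by 0.996 (adjusted p = 2.27e-07) and *Nr2f1* fell by 0.523 (adjusted p = 8.17e-05), and both encode COUP transcription factors. Genes were named by smallest p or highest level, and none of the 5 that rose is among them. In bulk RNA the cells behind these changes cannot be told apart.

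Markers of several cell types moved with the genotype. Of 8 MN markers, 7 rose and 0 fell, and all 8 were read in every library. Over all genes tested, 24.1% were higher and 23.8% lower, and the other marker lists have the same background. *Chat*, the acetylcholine-synthesising enzyme gene, rose by 0.99 and *Mnx1*, an MN transcription factor gene, by 0.88, while *Isl1* (-0.19, adjusted p = 0.0767) was not called. The MN progenitor list had 3 of 5 genes higher, *Nkx6-1*, *Nkx6-2* and *Sox1*. In that list *Olig2* (-0.167, adjusted p = 0.148) and *Sox2* (-0.197, adjusted p = 0.08) were not called. The general neuron list had 2 of 5 genes higher. Hindbrain MN markers had 0 of 3 called and summed to 10.73 to 18.19 CPM.

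Other lists gave the cells that are not MNs, beside 24.1% of all tested genes higher and 23.8% lower. Of 8 primitive and visceral endoderm markers, 6 fell, and the list went from a sum of 70.29 and 78.05 CPM in WT to 12.46 and 13.3 CPM in *Patz1* KO. *Foxa2* (28.2 to 5.56 CPM) was the largest part of that sum in WT. *Sox7* (-0.106, adjusted p = 0.826) and *Afp* (-0.0357, adjusted p = 0.959) were not called. Of 6 neural crest and mesenchyme markers, 4 fell and 1 rose, with the sums given beside *Hoxc6*. The gene that rose was *Foxd3* (log2 fold change 2.51, adjusted p = 1.37e-05), and *Tfap2a* (-0.747, adjusted p = 0.31) was not called. The glial list rose in 3 of 3 tested genes, from 11.55 and 11.89 CPM to 50.91 and 29.69 CPM, and *Gfap* had at most 1 count in any library. Of 5 tested ventral interneuron markers 3 rose and 1 fell, with a sum of 18.99 to 20.75 CPM. Pluripotency markers summed to 5.322 to 8.302 CPM, and 1 of 3 tested was lower. No gene of these lists was at 0 in all libraries.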

How the data were processed

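Stranded, ribosome-depleted total RNA of 4 libraries of cervical MNs was sequenced, 2 WT and 2 *Patz1* KO, grouped by the genotype in the labels. The authors mapped reads to mm10 and deposited raw counts per gene symbol. The submitters' processing notes name TopHat2 2.1.1, Bowtie2 2.3.1, featureCounts 1.6.2 and DESeq2. The annotation and strand setting of the counting are not given in the sources used here, so members with overlapping exons are uncertain. Every row names a gene.

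From the counts, edgeR 4.0.16 (R 4.3.3) gave TMM library sizes, the filterByExpr filter (minimum count 10) and the quasi-likelihood test with Benjamini-Hochberg adjustment over 14269 genes. The standard error is the absolute log2 fold change over the square root of F. The biological coefficient of variation was 7.71%. Replicates differed by more than counting noise (chi-square per gene 9.87 in WT, 22 in *Patz1* KO), and 3 counts were the detection limit. Reads carry no molecular identifiers, so intervals of shares and limits cover counting error only. Counts of 14269 genes were simulated with that coefficient of variation of 7.71% for every gene and log2 changes of at least 1 in size. The test called 192 of 200 changed genes and 9 of the unchanged ones. Genes in the data differ in their variation, so these numbers do not give the power for a single gene. A difference of 2 fitted fold changes has a combined standard error that takes the genes as independent.

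Named genes were *Patz1*, all members, per list the 3 tested genes with the smallest p and the 2 with the highest mean CPM, the 3 nearest genes with at least 10 counts in every library on each side of the cluster, non-coding genes in the cluster, and the 3 *Hox* genes closest in fold change to a called member. Tested paralogues, the marker genes fixed with the design and *Hotair* and the microRNA genes complete the text, and 1 gene that the rule names is not reported here. The members and lists were chosen with earlier results of these data known. Alternatives were other scalings and filters, a replicate block, DESeq2 1.42.0, robust estimation, a minimum fold change, leaving out each library and, chosen after seeing the data, thinning to the smallest library. Exons and 50-base stretches came from GENCODE M21, and scripts ran in Python 3.11.15 with scipy 1.17.1.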

Additional observations from a re-analysis of the deposited data

How the results depend on the processing

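Of 69 values of members recomputed under 14 alternatives, 65 kept their direction and their side of the threshold. Against a minimum absolute log2 fold change of 1, 0 members and 718 genes in all were called, in place of 1 and 6836, since that test asks for a larger change. Leaving out 1 library left a group with 1 library that was assumed to vary like the other group, and the number of members called went from 1 to 2 and that of all genes from 4521 (without WT library 2) to 7816. *Hoxc4* went from -0.271, where it was called (without *Patz1* KO library 2), to 0.012 (without *Patz1* KO library 1), and *Hoxc5* from -0.00162 (without *Patz1* KO library 2) to 0.138, and the cause was not tested. With the replicate number as a block, 1 member was called, *Hoxc6* (adjusted p = 1.32e-15), and 7361 genes in all. Replicate deviations of the genotypes correlated at 0.0304, and the samples share only a number. *Hoxc9* gave no value where 10 counts in every library were required. The scalings placed the median log2 fold change of all genes between -0.03 and 0.00696, and 46.8% to 51.5% of called genes were higher. *Hoxc4*, *Hoxc5* and *Hoxc6* summed as 1 unit had a log2 ratio of mean CPM of -0.149 beside -1.0 for *Hoxc6* by itself. Depth limits the statements on *Hoxc8* and *Hoxc9* and on the genes from *Hoxc10* to *Hoxc13*.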
